A study of Mus musculus with 26 samples.

Results

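The comparison described here is that of mice with a lesion of the suprachiasmatic nuclei (SCNx) with sham-operated mice (Ctrl) in the early part of the subjective night. Its members are the 8 libraries collected at CT12, CT16, CT36 and CT40, 4 per group, of the 26 libraries of the series, and the 13699 genes of the 55416 listed whose mean in these 8 libraries was at least 1 CPM, the unit of counts scaled to the size of the library. CT is circadian time, in hours of the animals' internal day, with CT12 at the start of their active phase, and CT36 and CT40 repeat CT12 and CT16 one day later. The libraries hold polyadenylated RNA from choroid plexus of the 4th ventricle, the secretory tissue that makes the cerebrospinal fluid.

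All mice were adult C57BL/6J males with no transgene, kept in constant darkness at the time of sampling. Those of SCNx had received bilateral electrolytic lesions of the hypothalamic clock and those of Ctrl a sham operation. A circadian time of a mouse without this clock is the time of its sampling, not a phase of its own rhythm. Each time point of a group was 1 mouse, so that the 4 libraries of a group are 4 animals and their spread includes the change from CT12 to CT16. Tests are the quasi-likelihood F tests of edgeR, adjusted by the Benjamini-Hochberg method for the 13699 genes, and a gene is said to have risen or fallen in SCNx where the adjusted p was under 0.05.

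The suprachiasmatic nuclei set the daily timing of locomotor activity, feeding, body temperature and adrenal glucocorticoid release, and each of these can reach the clocks of peripheral tissues. In nearly every cell the clock is a loop in which BMAL1, encoded by Arntl, pairs with CLOCK or NPAS2 and activates the Per, Cry, Nr1d and Dbp genes through E-boxes, and in which PER, CRY and NR1D proteins then act back on BMAL1 and its partners. In nocturnal rodents corticosterone peaks close to the onset of activity. The early night is therefore the phase at which genes induced through the glucocorticoid receptor, such as Tsc22d3, Fkbp5, Sgk1 and Per1, would be measured near their daily maximum in an animal with an intact pacemaker.

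The libraries held between 41807043 and 46672671 estimated counts. Markers of the epithelium summed to between 96054 and 109005 CPM in Ctrl and between 92132 and 102469 CPM in SCNx, ranges that overlapped, and the tissue therefore matched its label. Ctrl CT16 stood apart. The 24 markers of hepatocytes summed to 4154 CPM in that library, to 64.7 CPM in Ctrl CT40 and to between 3.97 and 13.1 CPM in the other 6. Of 169 genes with 1 library above 10 times the median of the other 7, 140 had it in Ctrl CT16. Saa1, an acute-phase protein of the liver, read 311 CPM there, 4.86 CPM in Ctrl CT40 and 0 in the other 6. Saa2, Orm1, Fga and Mup10, with 142 to 356 CPM in Ctrl CT16, were likewise highest there and none passed the test. SCNx CT12 held the largest sum of neuronal markers, 82.4 CPM, against 11.5 to 30.3 CPM in the others. In bulk tissue a lower level can mean fewer cells of a type or less RNA per cell, and these cannot be told apart here.

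**Figure D1:**
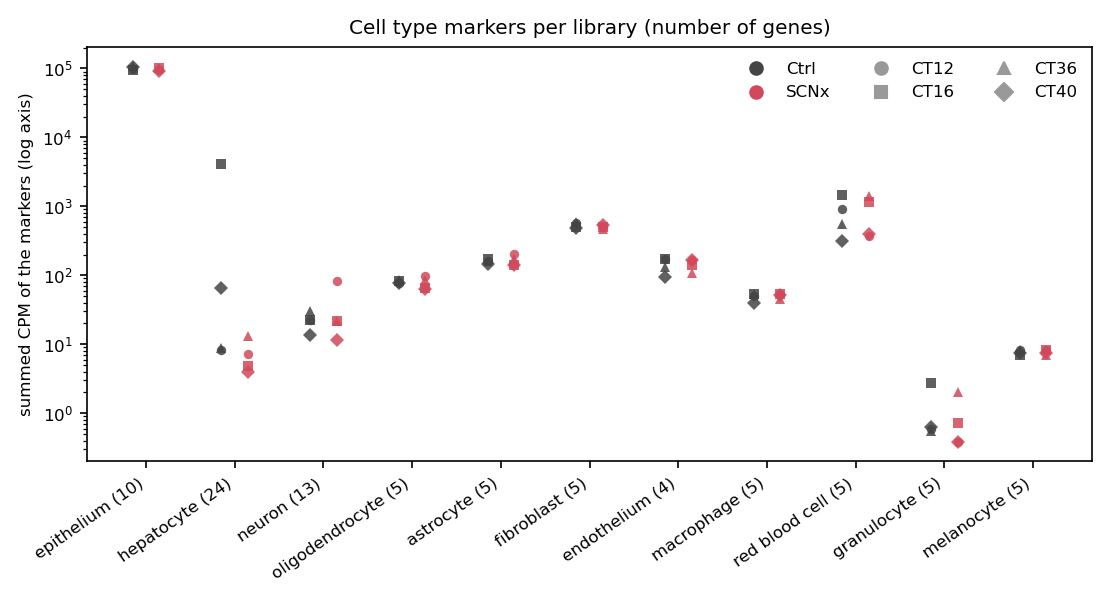
Summed CPM of the markers of each cell type (log axis) in the 4 Ctrl and 4 SCNx libraries, with the circadian time given by the shape of the symbol and the number of marker genes in brackets. Hepatocyte markers reached 4154 CPM in Ctrl CT16, while the epithelial sums of both groups overlapped.

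Between SCNx and Ctrl 26 genes differed in early night, which is 0.19% of those tested. Of these, 15 fell (0.109%) and 11 rose (0.0803%) in SCNx. All 26 had groups that did not overlap, a property shared by 795 genes (5.8%), 419 of them lower (3.06%) and 376 higher in SCNx (2.74%). The median log2 fold change of all genes was 0.00 and the median absolute value 0.08, so that most genes differed little. The smallest adjusted p was 0.0055, and 1377 genes had an unadjusted p under 0.05. The number of calls depended on single libraries: it was 1 without Ctrl CT12, Ctrl CT36, SCNx CT16 or SCNx CT40 and 2 without SCNx CT12 or SCNx CT36, but 27 without Ctrl CT16 and 30 without Ctrl CT40. None of the 26 was a gene whose level rested on 1 library. Each kept its direction under all alternatives that tested it. With separate groups, leaving out libraries could hardly turn a direction, so that this adds no support. Only Sfrp5 passed with each of the 8 libraries left out in turn. DESeq2's Wald test on the same counts called 263 genes, 138 lower and 125 higher in SCNx, which included all 26.

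**Figure D2:**
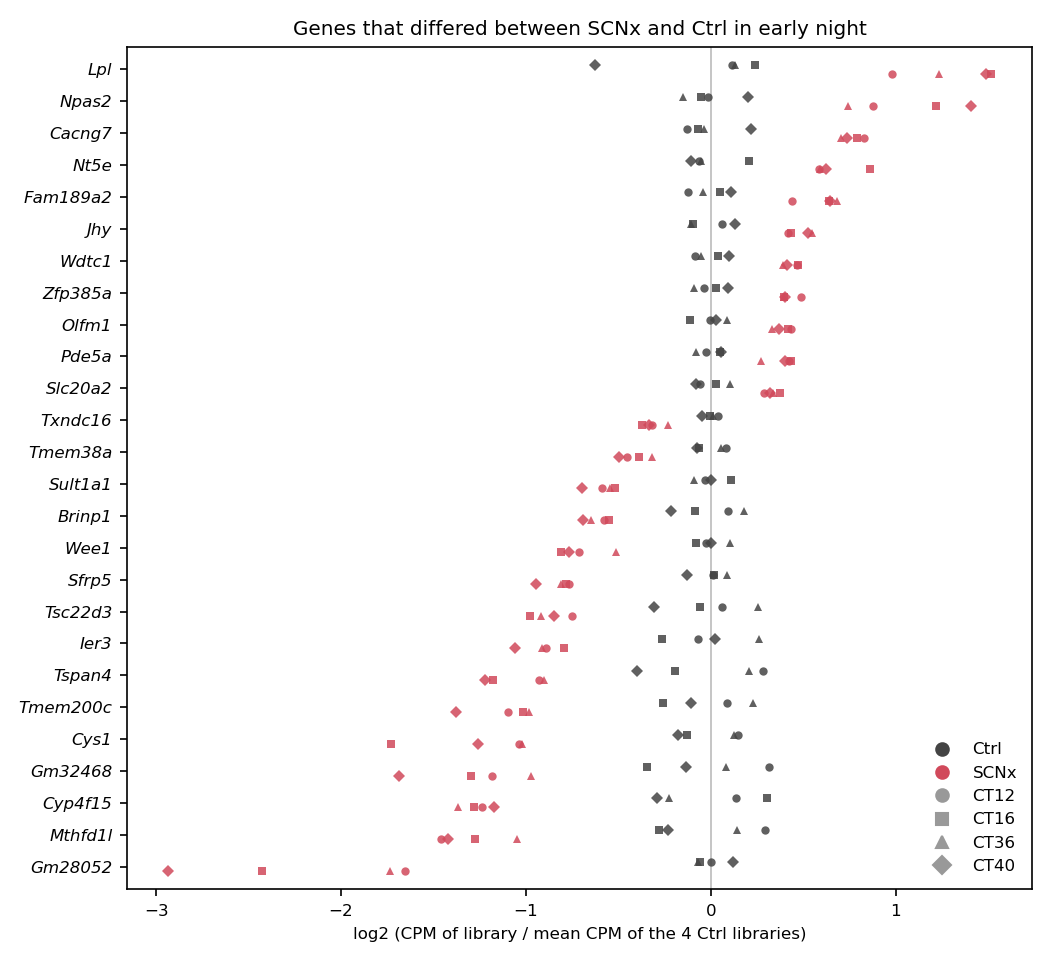
Level of each of the 26 genes with an adjusted p under 0.05 in each library, as log2 of its CPM over the mean of the 4 Ctrl libraries, with 1 point per mouse (grey Ctrl, red SCNx, the symbol giving the time). The genes are ordered by log2 fold change, from Lpl at 1.32 to Gm28052 at -2.09, and in each row the points of both groups lie apart.

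Sfrp5, a secreted antagonist of WNT ligands, gave the smallest p. It read 45.8, 46, 48.2 and 41.5 CPM in Ctrl at CT12, CT16, CT36 and CT40, and 26.7, 26.4, 25.9 and 23.6 CPM in SCNx. Every SCNx value lay well under the lowest Ctrl value, with little change from hour to hour in either group. The fold was 1.77 lower in SCNx (log2 -0.82 ± 0.06, SE, n = 4 per group, edgeR adjusted p = 0.0055). Wnt5b, one of the ligands of that pathway, was at 8.80, 6.73, 9.30 and 4.61 CPM in Ctrl and at 3.16, 3.05, 3.45 and 2.97 CPM in SCNx. Its groups were also separate, yet the adjusted p of 0.077 (edgeR, n = 4 per group) missed the threshold.

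Genes that glucocorticoids induce were among those that fell. Tsc22d3, which encodes the anti-inflammatory leucine zipper protein GILZ, read 40.8, 37.7, 46.8 and 31.7 CPM in Ctrl and 23.3, 19.9, 20.7 and 21.8 CPM in SCNx. The 4 lesioned mice were close together, and all lay below the lowest Ctrl mouse, CT40. The fold was 1.83 lower (log2 -0.87 ± 0.11, SE, edgeR adjusted p = 0.036). Sult1a1, a sulfotransferase of phenols and steroids, read 33.2, 36.6, 31.9 and 34 CPM in Ctrl and 22.5, 23.7, 23.2 and 21.0 CPM in SCNx. Here the spread was narrow in both groups, and the fold was 1.5 lower (log2 -0.59 ± 0.06, SE, edgeR adjusted p = 0.027).

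The list of glucocorticoid targets had 25 genes, of which 24 passed the minimum level and Cebpd did not. Of the 24, 2 fell and none rose, 8 (33.3%) had all SCNx values under all Ctrl values and 1 (4.17%) the reverse. Over all tested genes the last 2 shares were 3.06% and 2.74%. The median log2 fold change was -0.46, with 21 genes fitted lower. DESeq2 called 7 lower and 1 higher, against 138 and 125 of all 13699 tested genes. Besides Tsc22d3 and Sult1a1 the lower, separate genes were Per1, Plin4, Klf15, Bcl6, Arrdc2 and Nfkbia. Cdkn1a, an inhibitor of the cell cycle, was the separate gene on the higher side (log2 0.37, edgeR adjusted p = 0.26). Not all targets were lower to this extent. Klf9, Pdk4, Ddit4, Cebpb and Tgm2 had log2 differences of -0.06, 0.12, 0.03, -0.01 and -0.03, with overlapping groups (edgeR adjusted p from 0.78 to 0.98).

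For several targets the groups overlapped through few mice. Fkbp5, a co-chaperone that restrains the glucocorticoid receptor, read 26.8, 20.9, 27.8 and 8.75 CPM in Ctrl and 10.9, 10.04, 11.1 and 10.2 CPM in SCNx. The first 3 Ctrl mice were each above every SCNx mouse, whereas Ctrl CT40 was below all 4, and the adjusted p was 0.31 (log2 -0.996 ± 0.302, SE, edgeR). Zbtb16, a transcription factor, was likewise lowest among Ctrl mice at CT40, with 11, 5.61, 13.4 and 1.84 CPM against 2.26, 0.65, 1.95 and 5.91 CPM in SCNx, where CT40 exceeded Ctrl CT16 as well. Mt1, a metallothionein, was at 34.2, 31.0, 30.4 and 18.1 CPM in Ctrl and at 21.5, 17.9, 17.7 and 16.4 CPM in SCNx. Sgk1, a kinase that regulates sodium transport, had 397, 314, 488 and 381 CPM in Ctrl and 324, 271, 288 and 235 CPM in SCNx, with an overlap of 1 pair, SCNx CT12 over Ctrl CT16. None of the last 3 passed the test (edgeR adjusted p from 0.27 to 0.51, n = 4 per group). The lower value of Plin4, a lipid droplet protein with 21.5, 21.7, 21.9 and 15.9 CPM in Ctrl and 15, 11.7, 12.9 and 14.1 CPM in SCNx, missed it as well (edgeR adjusted p = 0.12).

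In other targets Ctrl CT16 was the highest library. Lcn2, a secreted acute-phase protein, read 175 CPM in that library and between 0.023 and 2.2 CPM in the other 7. Errfi1, a feedback inhibitor of the EGF receptor, read 34.5 CPM there and 9.88 to 11.6 CPM elsewhere. Mt2, a metallothionein, read 7.45, 14.5, 7.78 and 3.02 CPM in Ctrl and 4.81, 3.56, 4.17 and 3.48 CPM in SCNx, so that Ctrl CT12 and CT36 were above every SCNx mouse as well and Ctrl CT40 below all 4. These 3 genes were highest together with the hepatocyte markers of the same library, and the part of that RNA in them was not tested. Of the 2 called targets, Tsc22d3 in Ctrl CT16 lay within the range of the other Ctrl libraries, and Sult1a1 exceeded the next of them by little, with 36.6 CPM against 34 CPM.

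The receptor side of the pathway did not differ detectably. Nr3c1, the glucocorticoid receptor, read 81.7, 87, 77 and 76.7 CPM in Ctrl and 80.8, 81.1, 74.8 and 80.8 CPM in SCNx, with a log2 difference of -0.02 ± 0.05 (SE, edgeR adjusted p = 0.92). The 9 tested genes of this list, which also held the mineralocorticoid receptor Nr3c2, the co-chaperones Fkbp4 and Ptges3, the enzyme Hsd11b1 and the cofactors Ncoa1, Ncoa2 and Ncor1, had no call by edgeR or DESeq2, no unadjusted edgeR p under 0.05, overlapping groups throughout and a median of 0.03. The enzyme Hsd11b2 was at most 4 counts and was not tested.

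Clock genes were displaced in both directions. Of the list of 21, 19 were tested, since Rorb and Arntl2 did not reach the minimum. Their median log2 fold change was -0.52. All SCNx values were lower than Ctrl for 10 (52.6%, against 3.06% of all tested genes) and higher for 3 (15.8%, against 2.74%). Yet only Npas2 passed the test, while DESeq2 called 9 lower and 3 higher, against 138 and 125 of all 13699 tested genes. Npas2, the partner of BMAL1 that can replace CLOCK, read 5.47, 5.34, 4.99 and 6.36 CPM in Ctrl and 10.2, 12.9, 9.26 and 14.7 CPM in SCNx. All lesioned mice exceeded all controls, by a fold of 2.12 (log2 1.08 ± 0.15, SE, edgeR adjusted p = 0.044). Arntl was at 2.62, 6.84, 2.03 and 7.55 CPM in Ctrl and at 13.9, 20.1, 11 and 21.9 CPM in SCNx. Its lowest lesioned mouse was above its highest control, but the log2 difference of 1.81 ± 0.43 (SE) had an edgeR adjusted p of 0.21. Clock, at 103.6 to 165 CPM in Ctrl and 166 to 202 CPM in SCNx, was the third gene on the higher side (edgeR adjusted p = 0.31, n = 4 per group).

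Many of the genes that E-boxes drive lay on the other side. Dbp, a transcription factor of the PAR bZIP family, read 131, 36.7, 138 and 35.1 CPM in Ctrl and 27.2, 19.7, 31.7 and 16.7 CPM in SCNx. Even the lower Ctrl values, at CT16 and CT40, exceeded the highest SCNx value. Ciart, a repressor of the BMAL1 and CLOCK dimer, read 16.5, 2.14, 17.8 and 1.94 CPM in Ctrl and 1.08, 0.37, 1.01 and 0.72 CPM in SCNx, with no overlap. Tef, a relative of Dbp, read 207, 146, 206 and 142 CPM in Ctrl and 93.7, 76.5, 109 and 74.3 CPM in SCNx, again with no overlap. The folds were 3.58, 12.0 and 1.98 lower in SCNx, with edgeR adjusted p of 0.26, 0.18 and 0.077. The further clock genes with all SCNx values lower were Per1, Per2, Per3, Nr1d2, Cry1, Cry2 and Bhlhe41. In Bhlhe40 (log2 -0.24, edgeR adjusted p = 0.70) and Nr1d1 (log2 -0.41, edgeR adjusted p = 0.85) the groups overlapped.

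The 2 hours of the window had different levels of these genes, which a mean per group takes as spread. With the hour (CT12 and CT36, or CT16 and CT40) as a term in the model, 83 genes passed (0.606%), and 11 of the 19 clock genes were among them. Tef, Nr1d2, Per3, Cry2, Ciart, Per2, Dbp and Bhlhe41 were then lower in SCNx (edgeR adjusted p from 0.00098 for Tef to 0.043 for Bhlhe41) and Arntl, Npas2 and Clock higher (0.0088, 0.0097 and 0.035). All 26 genes called without the term were called with it. The calls of glucocorticoid targets with this term were the same 2, Tsc22d3 and Sult1a1 (edgeR adjusted p = 0.0097 for both).

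**Figure D3:**
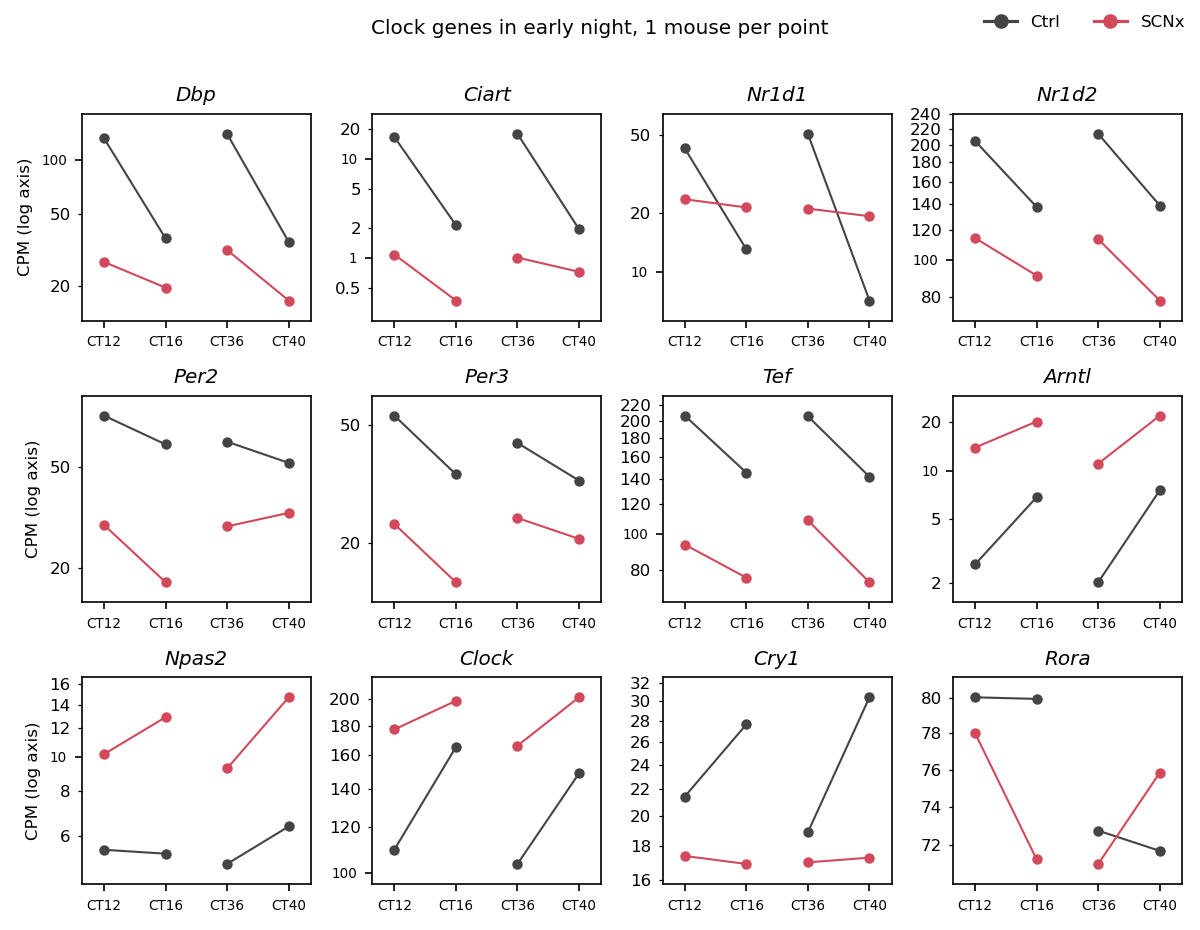
CPM (log axis) of 12 clock genes at CT12, CT16, CT36 and CT40, with 1 mouse per point and a line between the 2 times of the same day (grey Ctrl, red SCNx). Dbp fell from 131 to 36.7 CPM and from 138 to 35.1 CPM within the window in Ctrl. The lines of Nr1d1 cross on both days, and those of Rora cross between CT36 and CT40.

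Split by hour, a fit added after the values had been seen, the lesion called 37 genes at CT12 and CT36 (0.27%) and 2 at CT16 and CT40 (0.0146%), with 2 mice per group at each hour. Of the clock genes, Dbp, Ciart, Tef, Nr1d2 and Bhlhe41 fell and Arntl and Clock rose at the former hour, and Tef alone fell at the latter. The log2 difference of Dbp was -2.19 ± 0.11 (SE) at CT12 and CT36 (edgeR adjusted p = 0.0020) and -0.98 ± 0.11 (SE) at CT16 and CT40 (edgeR adjusted p = 0.063). For Ciart it was -4.03 and -1.90. Nr1d1, the repressor of Arntl, was above SCNx at CT12 and CT36, with 42.6 and 50.5 CPM against 23.4 and 21.0 CPM, and below it at CT16 and CT40, with 13 and 7.14 CPM against 21.3 and 19.2 CPM. Its difference over the whole window was accordingly small (log2 -0.41 ± 0.52, SE, edgeR adjusted p = 0.85), and limma-trend and the fit without Ctrl CT36 gave it the opposite sign.

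The fitted change from CT12 to CT16 mostly had the same sign in both groups. In 18 of the 19 clock genes the 2 later libraries differed from the 2 earlier ones with the same sign in Ctrl and in SCNx, and in 17 the difference was larger in Ctrl. The 19 genes were read in the same mice, 2 per hour and group, and are not independent observations. In SCNx the 2 days did not go the same way for every gene, as with Per2 and Bhlhe40. The median absolute log2 difference between the hours was 0.60 in Ctrl and 0.40 in SCNx for these genes, against 0.11 and 0.09 for all genes. Of all genes 34 differed between the hours in Ctrl (0.248%), 6 of them clock genes, and none in SCNx (0%), where 731 had an unadjusted p under 0.05 against 1477 in Ctrl. The difference of the hour effect between the groups was tested too and called no gene with edgeR, although 519 genes had an unadjusted p under 0.05.

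Genes of protein processing in the endoplasmic reticulum also differed with the hour. Over all 4 times none of the 53 genes of that list was called by edgeR or DESeq2, none had an unadjusted edgeR p under 0.05 or separate groups and the median log2 difference was 0.04. In Ctrl, however, 15 of the 53 differed between the hours, against 34 of all 13699 tested genes (0.248%), and all 15 were higher at CT16 and CT40. In SCNx no gene of the list differed between the hours, and for none was a difference of the hour effect between the groups called. Calr, the calcium-binding chaperone calreticulin, read 700, 1468, 785 and 1370 CPM in Ctrl and 1317, 1436, 1300 and 1582 CPM in SCNx. The 2 Ctrl mice at CT12 and CT36 stood far below the other 6, and at that hour Calr was higher in SCNx (log2 0.82 ± 0.09, SE, edgeR adjusted p = 0.028), whereas at CT16 and CT40 the difference was 0.09 ± 0.09. Hspa5, the chaperone BiP, and Manf, a secreted protein of the unfolded protein response, were picked for display after their values had been seen. Hspa5 read 747, 2156, 837 and 1996 CPM in Ctrl and 1395, 1718, 1573 and 2145 CPM in SCNx. Manf read 84.4, 257, 98.0 and 275 CPM in Ctrl and 145, 223, 170 and 244 CPM in SCNx, so that in both genes the lesioned mice at CT12 and CT36 lay between the lower and the higher controls. The median log2 difference between the hours over the list was 0.33 in Ctrl and 0.16 in SCNx, with 48 and 41 of the 53 genes higher at the later hour. The share of all tested genes that were higher at that hour is not given here.

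Promoters of 5 genes are shown, since E-boxes and D-boxes are among the elements through which the clock loop acts. The windows are RefSeq's, of build GRCm38.p6, and each gives the 250 bases before an annotated start, 5′ to 3′ on the strand of the gene. Capitals mark matches to the E-box CACGTG or, in Per3, to the D-box TTATGNAA on either strand. Ciart, Tef and Per3 are clock genes that were lower in SCNx with the hour term, and Tspan4 and Fam189a2 are the genes with an E-box among those called lower and higher.

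Ciart promoter, chr3:95882229-95882478, minus strand: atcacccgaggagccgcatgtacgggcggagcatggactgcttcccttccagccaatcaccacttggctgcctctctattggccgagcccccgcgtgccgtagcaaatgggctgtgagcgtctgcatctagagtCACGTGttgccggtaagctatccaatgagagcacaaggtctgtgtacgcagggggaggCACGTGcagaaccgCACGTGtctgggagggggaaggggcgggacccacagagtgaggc
Tef promoter, chr15:81802423-81802672, plus strand: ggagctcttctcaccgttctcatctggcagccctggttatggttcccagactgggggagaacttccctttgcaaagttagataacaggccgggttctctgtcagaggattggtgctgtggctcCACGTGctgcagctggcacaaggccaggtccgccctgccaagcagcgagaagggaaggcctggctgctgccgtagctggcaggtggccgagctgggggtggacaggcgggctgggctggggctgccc
Per3 promoter, chr4:151044666-151044915, minus strand: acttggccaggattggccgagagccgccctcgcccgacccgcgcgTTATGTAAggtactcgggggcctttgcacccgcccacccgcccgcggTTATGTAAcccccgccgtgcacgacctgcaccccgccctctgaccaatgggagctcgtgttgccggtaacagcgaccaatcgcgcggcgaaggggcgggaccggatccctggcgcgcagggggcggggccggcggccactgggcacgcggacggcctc
Tspan4 promoter, chr7:141476130-141476379, plus strand: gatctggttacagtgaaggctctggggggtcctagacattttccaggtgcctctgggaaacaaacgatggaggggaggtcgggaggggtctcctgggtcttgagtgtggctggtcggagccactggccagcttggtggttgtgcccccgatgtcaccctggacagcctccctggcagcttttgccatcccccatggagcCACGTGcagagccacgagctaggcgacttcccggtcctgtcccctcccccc
Fam189a2 promoter, chr19:24031020-24031269, minus strand: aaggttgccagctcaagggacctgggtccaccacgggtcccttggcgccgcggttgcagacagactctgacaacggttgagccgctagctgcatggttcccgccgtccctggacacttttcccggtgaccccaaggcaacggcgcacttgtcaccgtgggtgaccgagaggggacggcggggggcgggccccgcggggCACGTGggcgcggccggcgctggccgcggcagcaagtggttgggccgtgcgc

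Ciart had 3 E-boxes, at 116, 58 and 44 bases before its start, and Per3 had 2 D-boxes, at 205 and 158 bases. In windows of 300 bases, which add 50 after the start, the E-box was present for 11.5% of the tested genes with a window, for 5 of 16 clock genes, for 1 of the 13 genes that fell and for 1 of the 9 that rose. The D-box was present for 2.54% of the tested genes and for Per1 and Per3 among the clock genes. Such matches are letters in a window and say nothing of binding.

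Wee1, Ier3 and Gm28052 were also among the genes that fell. Wee1, the kinase that holds back entry into mitosis, read 14.9, 14.4, 16.3 and 15.2 CPM in Ctrl and 9.28, 8.69, 10.7 and 8.93 CPM in SCNx. The Ctrl values were close together and all lay over those of SCNx, by a fold of 1.62 (log2 -0.70 ± 0.08, SE, edgeR adjusted p = 0.028). Ier3, an early response gene of stressed cells, read 9.68, 8.46, 12.1 and 10.3 CPM in Ctrl and 5.46, 5.84, 5.38 and 4.88 CPM in SCNx, a fold of 1.88 lower (edgeR adjusted p = 0.036). It was the single call among 17 tested immediate early genes, whose median log2 difference was -0.17, and Fos, Fosb, Egr2, Egr3, Atf3 and Arc did not reach the minimum level. Gm28052, a predicted gene, had the lowest ratio of all calls, with 7.77, 7.43, 7.39 and 8.43 CPM in Ctrl and 2.46, 1.44, 2.33 and 1.01 CPM in SCNx (log2 -2.09 ± 0.26, SE, edgeR adjusted p = 0.036).

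Further genes with separate groups that fell were Tspan4, a tetraspanin of the plasma membrane, Tmem38a, a potassium channel of the endoplasmic reticulum, Cys1, which encodes the ciliary protein cystin, and Mthfd1l, a mitochondrial enzyme of folate metabolism. Tspan4 read 66.7, 47.8, 63.1 and 41.5 CPM in Ctrl and 28.7, 24.2, 29.3 and 23.5 CPM in SCNx, higher at CT12 and CT36 in both groups. Tmem38a was a small but even change, from 125 to 139 CPM in Ctrl to between 93.5 and 106 CPM in SCNx. Cys1 was at 7.74 to 9.68 CPM in Ctrl and 2.63 to 4.31 CPM in SCNx, and Mthfd1l at 2.55 to 3.8 and 1.13 to 1.5 CPM. The remaining calls were Tmem200c, Gm32468, Brinp1, Txndc16 and Cyp4f15, with log2 differences from -1.26 to -0.31.

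The genes that rose had mostly small changes with little spread. Cacng7, which encodes an auxiliary subunit of AMPA receptors and calcium channels, read 32.2, 33.5, 34.3 and 40.9 CPM in Ctrl and 62.6, 61, 57.5 and 58.7 CPM in SCNx. The groups were far apart, with a fold of 1.70 (log2 0.77 ± 0.08, SE, edgeR adjusted p = 0.027). Fam189a2, a membrane protein, read 54.7, 61.9, 58.0 and 64.4 CPM in Ctrl and 81.0, 92.9, 96.0 and 93.4 CPM in SCNx, a fold of 1.52 higher (edgeR adjusted p = 0.028). Nt5e, the ecto-enzyme CD73 that makes adenosine, read 26.0, 31.3, 26.2 and 25.2 CPM in Ctrl and 40.8, 49.3, 40.9 and 41.9 CPM in SCNx, with CT16 the highest mouse of each group, and rose by a fold of 1.59 (edgeR adjusted p = 0.036).

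Lpl, the lipoprotein lipase, rose most, from 5.69, 6.2, 5.75 and 3.4 CPM in Ctrl to 10.4, 15, 12.4 and 14.8 CPM in SCNx. No SCNx mouse was near the Ctrl range, and the fold was 2.50 (log2 1.32 ± 0.20, SE, edgeR adjusted p = 0.046). Pde5a, a phosphodiesterase of cyclic GMP, rose from between 72.7 and 79.9 CPM to between 92.9 and 104.1 CPM, and Olfm1, a secreted glycoprotein, from between 42.0 and 48.2 CPM to between 57.1 and 61.3 CPM. The folds were 1.30 and 1.31. Wdtc1, Zfp385a and Jhy rose by folds of 1.35, 1.34 and 1.40.

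The transport functions of the tissue were represented by a list of fluid secretion and a list of solute carriers of the barrier. Of 28 barrier transporters 1 was called, Slc20a2, a sodium-coupled phosphate transporter, which rose. DESeq2 called 4 lower (Slc19a1, Slc6a15, Slc2a12 and Slc22a8) and 1 higher, and the fit with the hour term 3 lower (Slc19a1, Slc6a15 and Slc7a5) and 1 higher, Slc20a2 in both. Over all 13699 tested genes the lower and higher calls were 138 and 125 with DESeq2, and 46 and 37 with the hour term. Slc20a2 read 128, 136, 143 and 126 CPM in Ctrl and 163, 173, 168 and 166 CPM in SCNx, and all lesioned mice exceeded all controls (fold 1.26, log2 0.33 ± 0.05, SE, edgeR adjusted p = 0.046). On the other side 5 of the 28 were lower with separate groups (17.9%, against 3.06% of all tested genes). Among them were the amino acid transporter Slc6a15 (log2 -0.40, edgeR adjusted p = 0.055) and the organic anion transporter Slc22a8 (log2 -0.57, edgeR adjusted p = 0.099). The median over the list was -0.08.

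None of the 30 fluid secretion genes was called by edgeR, although 5 had an unadjusted p under 0.05 and DESeq2 called 3, Clcn2, Slc12a2 and Car14. All 3 were lower, as were 138 of all 13699 tested genes with DESeq2. Slc12a2, the cotransporter NKCC1, read 1556, 1518, 1465 and 1280 CPM in Ctrl and 1212, 1215, 1208 and 1272 CPM in SCNx, and its groups were separate by a narrow margin. Car14, a carbonic anhydrase, read 279, 242, 309 and 218 CPM in Ctrl and 189, 198, 214 and 182 CPM in SCNx, and the chloride channel Clcn2 16.9, 12.3, 14.3 and 11.9 CPM and 10.6, 7.31, 9.35 and 9.66 CPM. Together with the potassium channel Kcnj13 these were the 4 genes of the list lower with separate groups (13.3%, against 3.06% of all tested genes). Their edgeR adjusted p lay between 0.21 and 0.46. The median of the list was -0.04.

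A list of 43 signalling and metabolic genes was taken from those the study itself names as rhythmic in these libraries. The list does not hold all such genes, since the study also names Cys1, which fell here, and Cacng7, which rose. That list was chosen on samples that include these 8, so that its counts are no independent evidence. Of the 42 tested, Sfrp5 and Wee1 fell and Lpl rose, and the median log2 difference was -0.23. With separate groups 12 (28.6%) were lower and 5 (11.9%) higher, against 3.06% and 2.74% of all tested genes.

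The other lists held no call by edgeR, and between 0 and 8 of their genes had an unadjusted p under 0.05. Their medians were 0.07 for 22 heat shock genes, -0.39 for 4 cold-inducible genes, -0.05 for 17 genes of SRF and actin, -0.02 for 19 secreted products, -0.15 for 26 genes of sterol and fatty acid synthesis, -0.05 for 20 genes of insulin and feeding, -0.10 for 24 interferon and MHC class I genes and 0.23 for 13 mitochondrially encoded genes of the respiratory chain. All 13 of the last list were fitted higher in SCNx, with overlapping groups, while the mitochondrial share of counts was 3.92% to 6.64% in Ctrl and 4.84% to 7.49% in SCNx. In the list of interferon genes Ifit3 read highest in Ctrl CT16, with 14.4 CPM against 3.98 to 10.5 CPM in the other 7. Among the cold-inducible genes Rbm3 read 101, 76.5, 97.4 and 94.0 CPM in Ctrl and 55.7, 63.2, 80.5 and 61.8 CPM in SCNx, with an overlap of SCNx CT36 and Ctrl CT16 and an edgeR adjusted p of 0.22. The sterol gene Fdft1 was lower with separate groups (log2 -0.27, edgeR adjusted p = 0.21), and DESeq2 called it. It also called Rbm3, Ifit3 and the secreted genes Ccn2 and Wnt5b as lower.

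**Figure D4:**
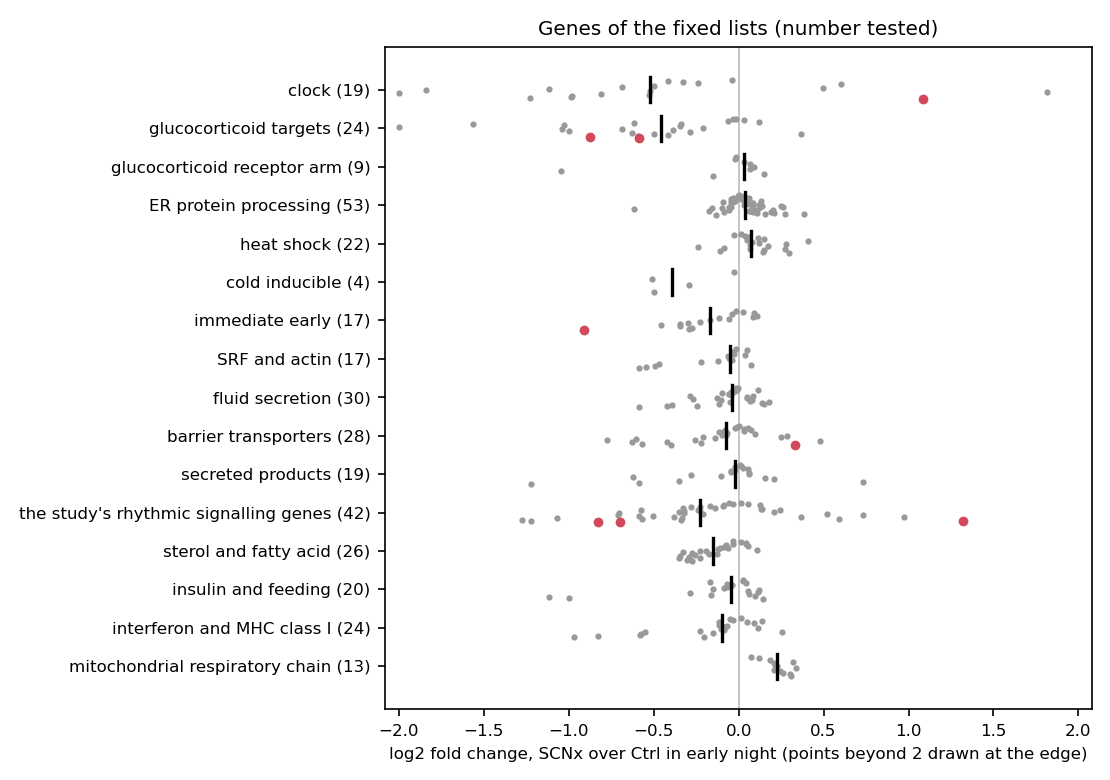
Log2 fold change of SCNx over Ctrl in early night for the tested genes of each list, with the number of genes in brackets, red points for an adjusted p under 0.05 and a black bar at the list's median. The clock and glucocorticoid target lists have medians of -0.52 and -0.46, and the list of protein processing in the endoplasmic reticulum one of 0.04.

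To see how far these differences belonged to the early night, the lesion effect at these 4 times was set against that at the other 8 in one model of 24 libraries. The other times were taken as day (CT4, CT8, CT28 and CT32) and late night (CT0, CT20, CT24 and CT44). The effect differed for 27 genes (0.197%), being lower in early night for 10 (0.073%) and higher for 17 (0.124%), and 7 of them were among the 26: Gm28052, Ier3, Cacng7, Fam189a2, Wdtc1, Zfp385a and Nt5e. For the other 19 of the 26 a difference between the times was not shown. The count was between 1 (without Ctrl CT36) and 53 (without Ctrl CT40) when 1 of the 8 libraries was left out, and 8 to 11 without Ctrl CT12 or any 1 of the SCNx libraries.

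Nr1d2 and Per3 turned over within the night. The mean of Nr1d2 in Ctrl was 158 CPM by day, 171 CPM in early night and 39.3 CPM in late night, and in SCNx it was 137, 97.7 and 111 CPM. The log2 difference was therefore -0.80 in early night and 1.5 in late night, and the early night differed from the other times by -1.45 ± 0.23 (SE, edgeR adjusted p = 0.012). Per3 went from 27.6 to 40.3 to 10.6 CPM in Ctrl and from 33.1 to 20.4 to 25.5 CPM in SCNx, with a difference of -1.75 ± 0.31 (SE, edgeR adjusted p = 0.019). In both genes, which this contrast had picked, the means of the lesioned mice spanned less than those of the controls.

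Cacng7 and Fam189a2, which the early night calls and this contrast had picked, had means above Ctrl in lesioned mice at this phase and below Ctrl at the others. Shapes seen in genes so picked are no separate test. Cacng7 averaged 63.5, 34.7 and 68.9 CPM by day, in early night and in late night in Ctrl, and 56.4, 59.1 and 57.1 CPM in SCNx. The dip of the controls in early night was absent from the lesioned mice, and the effect differed from the other times by a log2 of 0.99 ± 0.16 (SE, edgeR adjusted p = 0.012). Fam189a2 averaged 86.9, 58.9 and 99.4 CPM in Ctrl and 69.5, 89.6 and 78.2 CPM in SCNx, a difference of 0.94 ± 0.15 (SE, edgeR adjusted p = 0.012). Lynx1, a modulator of nicotinic receptors, Fam222a and Zfp219 showed the same order with differences of 0.56, 0.56 and 0.39. On the lower side Mir22hg, the host transcript of a microRNA, differed by -1.07, Ier3 by -1.05 and Gm28052 by -2.22.

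Over the 26 genes the Ctrl mean of early night was the highest of the 3 windows for all 15 that fell and the lowest for all 11 that rose. This rests in part on the libraries that made the calls and is no separate test. The span between the highest and the lowest window was a median fold of 1.87 in Ctrl and 1.21 in SCNx for the genes that fell, and of 1.61 and 1.18 for those that rose. These spans include the early night on which the genes were chosen, so that the larger span in Ctrl is no separate test either. The libraries of the other windows took no part in choosing these genes. There the lesion effect had the same sign as in early night for 6 of the 15 genes by day and 7 in late night, and for 1 and 3 of the 11. Sfrp5 had the same sign throughout, but its log2 difference was only -0.026 ± 0.195 (SE) by day and -0.27 ± 0.195 in late night. It averaged 44.7 CPM in early night in Ctrl against 27.7 CPM by day and 30.3 CPM in late night, and between 25.1 and 27.2 CPM at all 3 in SCNx. Tsc22d3 averaged 17.8, 38.6 and 22.4 CPM over day, early night and late night in Ctrl and 24.7, 21.1 and 20.8 CPM in SCNx.

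**Figure D5:**
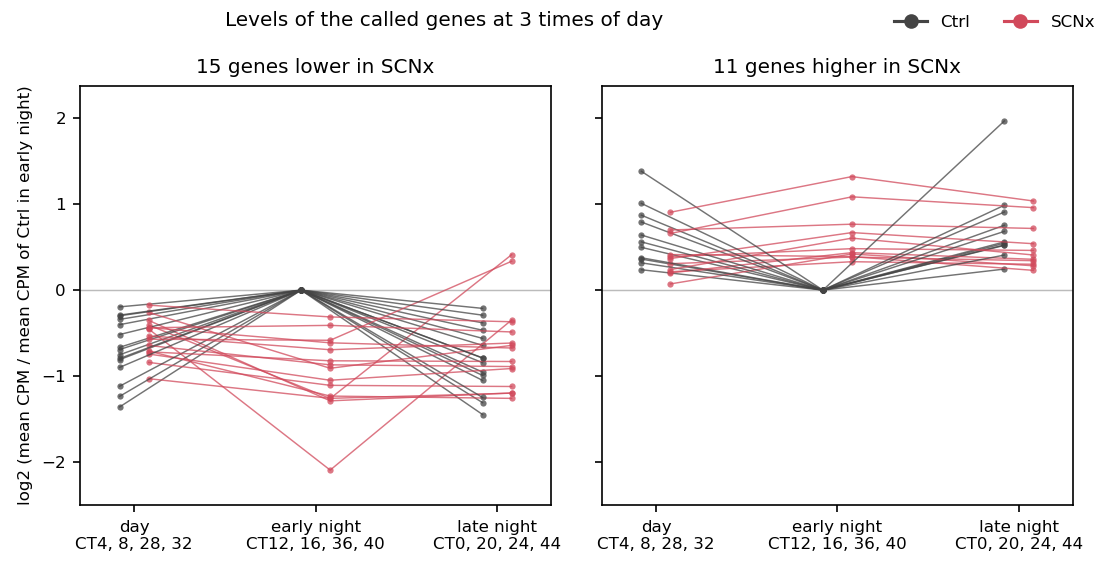
Mean level of the 15 genes that fell (left) and the 11 that rose (right) by day, in early night and in late night, as log2 of the mean CPM of 4 libraries over that of Ctrl in early night (grey Ctrl, red SCNx, 1 line per gene). The grey lines peak at the centre on the left and dip there on the right, while the median span of the red lines was a fold of 1.21 and 1.18. The genes were chosen on the early night, which is part of these shapes and spans.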

How the data were processed

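The authors prepared libraries of polyadenylated RNA (single-end reads), mapped them to GRCm39 with the nf-core/rnaseq workflow and deposited Salmon's expected counts for each gene with no normalization. The submitters' processing notes name Salmon 1.9.0, cutadapt 3.4, StringTie 2.2.1 and SAMtools 1.16.1. Here the estimated counts were rounded to whole numbers. Samples were grouped by the labelled treatment and circadian time.

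Genes averaging 1 CPM or more over the 8 libraries were tested with edgeR 4.0.16 (TMM, quasi-likelihood F test, R 4.3.3), with 1 mean per group and a threshold of 0.05 on the adjusted p. The contrast with the other times used 24 libraries in 6 cells of group and window. CPM values are scaled by TMM over the 8 libraries, whereas means per window come from the fit of 24. The fits were tested on simulated data. Alternatives used DESeq2 1.42.0, limma-trend (limma 3.58.1), other filters, an hour, cycle or time term, and left out each library. Figures used matplotlib 3.10.9.

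Members, gene lists and tests were chosen with earlier results of these data known. The genes named are the tested members of the clock, glucocorticoid target and receptor lists, the 10 leading genes by p in either direction, up to 6 called or else 3 leading genes of each other list, the 5 leading genes of the interaction in each direction, the 5 with the highest single-library ratio and the genes the study names. Some genes that this rule names are not reported here. Any others in the text were taken from the tables of calls or of separate groups after their values were seen. Where replicates are concerned, each library is a different mouse, but no labels tie mice of the groups to each other. The table of the KO mice was not used here, and no coordinates of the authors' build are given.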

Additional observations from a re-analysis of the deposited data

Results flagged for a closer look

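Ctrl CT16 was far from the other Ctrl libraries in its hepatocyte markers, 4154 CPM, and in its granulocyte markers, 2.74 CPM, and SCNx CT12 in its neuronal markers, 82.4 CPM. Among the 26 genes with an adjusted p under 0.05, Zfp385a was high in SCNx CT12 at 51.7 CPM, and Nt5e was high in Ctrl CT16 at 31.3 CPM and in SCNx CT16 at 49.3 CPM. In each case the gap to the nearest of the 4 libraries was a larger part of the range than Dixon's test allows for 4 values. Chance marks about 1 group in 20, and 52 groups of called genes and 22 of marker sums were examined.

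The lesion effect in early night differed from that at the other times, by the interaction term in edgeR, for Nr1d2 (-1.45, log2), Mir22hg (-1.07), Ier3 (-1.05), Gm28052 (-2.22), Per3 (-1.75), Lynx1 (0.56), Fam189a2 (0.94), Cacng7 (0.99), Fam222a (0.56) and Zfp219 (0.39).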

How the results depend on the processing

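All 26 calls of the lesion effect in early night kept their direction under each of the 20 alternatives that tested them, but none passed the threshold under all. As the groups of all 26 were separate, leaving out libraries could hardly turn a direction. The number of calls was 263 with DESeq2's Wald test, 47 with no filter on low counts, 83 with the hour as a term, 5 with the cycle as a term, 5 as a contrast within all 24 libraries (3 of the 26 among them), 1 without both CT16 libraries, 2 for CT16 and CT40 alone and 1 to 30 with 1 library left out. For the contrast with the other times it was 212 with DESeq2, 47 at a minimum mean of 5 CPM and 1 to 53 with 1 library left out. Genes with separate groups numbered 971 to 1683 with 1 library left out and 2238 without both CT16 libraries, where fewer samples must be kept apart. With the circadian time as a replicate block, 26 genes were called, 11 of them among the 26, and 25 for the contrast with the other times. The times did not pair the mice: the correlation of deviations was 0.197 at CT12, -0.135 at CT16, -0.304 at CT36 and 0.117 at CT40, and only the CT12 mice matched each other best.

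Uncalled genes whose sign turned with 1 library left out had log2 ranges of -0.067 to 0.081 for Cebpb, -0.0059 to 0.068 for Ddit4, -0.79 to 0.040 for Errfi1, -1.41 to 0.12 for Hsd11b1, -0.023 to 0.084 for Ncoa2, -0.74 to 0.022 for Nr1d1, -0.045 to 0.016 for Nr3c1 and -0.29 to 0.40 for Tgm2. Without both CT16 libraries the sign turned for Cebpb (0.13), Errfi1 (0.065), Hsd11b1 (0.17), Nr3c1 (0.0056), Rora (0.0024) and Tgm2 (0.42), with limma-trend for Nr1d1 (0.0015) and Tgm2 (0.14), and for Tgm2 with the replicate block (0.11) and the cycle term (0.13). The causes were not tested. The smallest library held 41807043 estimated counts, and the part of counting error in the spread between mice was not tested.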
